A study of Mus musculus with 8 samples.

Results

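The nuclear-encoded genes of oxidative phosphorylation were described in mouse long-term haematopoietic stem cells (LT-HSCs), complex by complex. Members were all gene symbols of the deposited count table that begin with Nduf, Uqcr, Cox4 to Cox8 or Atp5, together with Sdha, Sdhb, Sdhc and Sdhd, and that had a total count of at least 10 over the 8 libraries. Of the 24421 symbols in the table, 92 fitted this pattern and 90 were kept, because Ndufs5, an accessory subunit of complex I, and Cox8c, a testis isoform, had a total count of 0. The 0 of Ndufs5 is uncertain, since 21.7% of the 50-base words of its transcripts also occur in a pseudogene. The handling of multi-mapping reads is not given, and whether Ndufs5 RNA was absent was not tested. Complex I had 42 members, complex II 4, complex III 8, complex IV 19 and complex V 17. The symbols were assigned by known function: Ndufa4, once counted as a complex I subunit, and its paralogue Ndufa4l2 were placed with complex IV. Atp5sl is named after ATP synthase but acts in the assembly of complex I, and it was kept with complex V by its symbol.

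RNA was measured by total RNA sequencing of bone marrow cells sorted as lineage-negative, CD117+, Sca1+, CD150-high and CD48-low, and divided by a Vwf-GFP reporter, used in all 4 groups, into a Vwf+ and a Vwf- fraction. The groups were Vwf+ wild type (WT), Vwf- WT, Vwf+ Dnmt3a+/- and Vwf- Dnmt3a+/-, all from mice of 10 to 12 months. Each group held 2 libraries, replicate 1 from a male and replicate 2 from a female pool of 3 to 4 mice, so single mice were not resolved and sex and replicate number cannot be told apart. The labels describe neither the altered Dnmt3a allele nor whether the Vwf+ and Vwf- cells of a pool came from the same mice. Vwf, the von Willebrand factor gene of platelets and endothelium, marks stem cells with a bias towards platelets, and Dnmt3a encodes a DNA methyltransferase.

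The respiratory chain passes electrons from NADH (complex I) and succinate (complex II) through complex III to oxygen at complex IV, and complexes I, III and IV pump protons across the inner mitochondrial membrane. Complex V, the ATP synthase, lets the protons flow back and makes ATP. Most subunits are encoded in the nucleus, and a minority by mitochondrial DNA. No mitochondrially encoded gene was in the table, so the catalytic core of complex IV (Cox1 to Cox3 of the mitochondrial genome) and the mitochondrial partners of complexes I, III and V were not analysed here. Resting stem cells are known for low respiration and for a reliance on glycolysis.

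The libraries held total counts of 21809278 to 39402418, of which members took 0.484% to 0.619% of them. Vwf stood at 23.3 to 29 TPM (the count per gene length, scaled to the same sum in each library) in the Vwf- libraries and at 254 to 294 TPM in the Vwf+ libraries. Dnmt3a was higher in the library labelled Dnmt3a+/- in 4 of 4 pairs of the same fraction and sex: 77.5 against 52.5 TPM and 57.9 against 45.3 TPM in male and female Vwf- cells, and 39 against 37.6 TPM and 60.5 against 36.9 TPM in male and female Vwf+ cells. The level of the targeted gene was thus not lower under the heterozygous label, and genotype is given throughout as labelled. All 10 markers of stem cells examined were detected, with a summed level of 1040 to 1540 TPM. The haemoglobin genes Hba-a1, Hbb-bs and Hbb-bt were listed at 0 in all 8 libraries. The ribosomal precursor Rn45s took 6.08% to 11.9% of counts, and the nuclear transcript Malat1 0.974% to 1.97% in male and 0.446% to 0.585% in female libraries.

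Members share no sequence by the way they were chosen, and their promoters were read for letters bound by regulators of mitochondrial genes. Nuclear respiratory factor 1 (NRF1) binds GCGCA and GCGC with 1 base of any kind between them, ETS factors such as GABPA (also called NRF2) bind CCGGAAG, and YY1 binds AAGATGG. RefSeq promoters on GRCm38.p6 were searched on both strands over the 250 bases before the start. Of the members, 75 matched the table by symbol, with 81 promoters. The NRF1 letters were in 17.3% of member promoters, 5.18% of the promoters of protein-coding genes and 3.74% of all 32851 promoters. The ETS letters were in 16%, 8.98% and 6.91%, and the YY1 letters in 2.47%, 4.13% and 4.49%. NRF1 letters stood before 13 members, namely Ndufa5, Ndufa8, Ndufa11, Ndufb4, Ndufs6 and Ndufaf4 of complex I, Sdha and Sdhd of complex II, Cox6a1 of complex IV, and Atp5c1, Atp5g2, Atp5h and Atp5k of complex V. In complex III they were found before none of the 5 members in the promoter table. These shares describe letters, not binding.

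The 3 promoters that held both the NRF1 and the ETS letters are printed because no other member combined them. They belong to Sdhd, a membrane anchor of complex II (chr9:50603850-50604099, minus strand), to Cox6a1, the common form of a complex IV subunit (chr5:115348959-115349208, minus strand), and to Atp5h, a peripheral stalk subunit of ATP synthase (chr11:115419920-115420169, minus strand). Capitals mark the NRF1 and ETS letters on either strand.
Sdhd: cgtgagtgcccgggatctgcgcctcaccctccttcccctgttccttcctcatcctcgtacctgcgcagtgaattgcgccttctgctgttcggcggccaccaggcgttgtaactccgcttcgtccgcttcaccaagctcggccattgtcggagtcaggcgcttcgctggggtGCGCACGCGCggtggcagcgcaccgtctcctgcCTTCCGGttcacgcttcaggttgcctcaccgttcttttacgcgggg
Cox6a1: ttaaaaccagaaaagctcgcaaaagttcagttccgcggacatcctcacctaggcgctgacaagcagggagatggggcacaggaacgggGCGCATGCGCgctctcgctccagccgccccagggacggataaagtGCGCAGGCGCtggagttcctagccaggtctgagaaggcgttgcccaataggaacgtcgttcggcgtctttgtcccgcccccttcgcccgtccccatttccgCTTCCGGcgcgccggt
Atp5h: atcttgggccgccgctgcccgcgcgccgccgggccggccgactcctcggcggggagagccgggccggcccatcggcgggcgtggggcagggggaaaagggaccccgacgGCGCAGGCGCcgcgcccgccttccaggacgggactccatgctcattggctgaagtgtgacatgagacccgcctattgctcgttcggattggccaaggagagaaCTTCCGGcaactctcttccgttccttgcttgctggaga
In all 3 the ETS letters lay downstream of the NRF1 letters, and no marked stretch overlapped another. Levels behind them differed: Sdhd averaged 68.9 TPM over the 8 libraries, Cox6a1 171 TPM and Atp5h 466 TPM. Of the tested members with a count above 0 in every library, Atp5h had the smallest spread between libraries, described below.

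The 5 complexes kept similar proportions in every library. Their TPM values summed to 11385 to 12784 per library, a range of 1.12-fold. Complex I gave 30.5% to 32.3% of that sum, complex V 28.8% to 32%, complex IV 21.8% to 23.9%, complex III 10.9% to 12.3% and complex II 3.01% to 3.97%. Summed levels ran from 3491 to 4115 TPM for complex I, 1298 to 1514 TPM for complex III, 2583 to 3034 TPM for complex IV and 3364 to 4089 TPM for complex V. On the TPM scale complex II had the widest range, from 348.1 TPM in the male Vwf- Dnmt3a+/- library to 498.4 TPM in the female Vwf- WT library, or 1.43-fold. In summed CPM the ranges were 1.44-fold for complex V, 1.42-fold for complex II and 1.32-fold for all members.

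**Figure D1:**
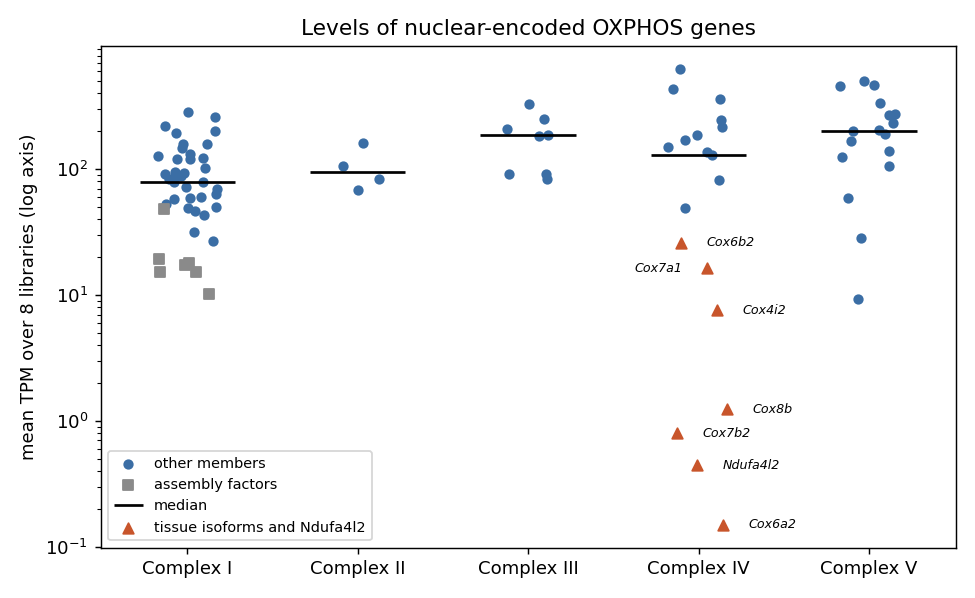
Mean TPM over 8 libraries of each of the 90 members, on a log axis, by complex; each point is 1 gene and bars are medians. Complex V has the highest median (201 TPM), the 7 assembly factors of complex I lie at or below 48.3 TPM, and the tissue isoforms of complex IV with Ndufa4l2 lie at or below 26.2 TPM.

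Levels differed widely between the members of a complex. The median member stood at 201 TPM in complex V, 186 in complex III, 129 in complex IV, 94.7 in complex II and 79.8 in complex I. The most abundant member was Cox6c of complex IV, at 566 to 692 TPM. Cox4i1, the common regulatory subunit of the same complex, followed within it with a mean of 433 TPM. In complex V the catalytic β subunit gene Atp5b averaged 504 TPM and the catalytic α subunit gene Atp5a1 457 TPM, with Atp5h between them, and Atp5s, an ATP synthase associated gene, was lowest at 9.29 TPM.

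In complex I the accessory subunit genes Ndufb10 (285 TPM) and Ndufa6 (261 TPM) led, and among the core subunits, which carry the flavin and the iron-sulfur clusters or bind ubiquinone, Ndufs7 (203 TPM) stood above Ndufv1 (93.2), Ndufv2 (91.1), Ndufs8 (83.4), Ndufs3 (59) and Ndufs1 (46.2). The 7 assembly factors, which build complex I but are not part of it, averaged 10.3 TPM (Ndufaf5) to 48.3 TPM (Ndufaf2). The value of Ndufaf2 is uncertain, since 65.7% of its exon bases overlap another gene. In complex II the flavoprotein gene Sdha averaged 163 TPM, the iron-sulfur gene Sdhb 105, and the membrane anchors Sdhc 83.9 and Sdhd 68.9 TPM. In complex III the hinge protein gene Uqcrh (328 TPM) and Uqcrq (251 TPM) led, the core protein genes Uqcrc1 and Uqcrc2 averaged 184 and 92.4 TPM, the Rieske iron-sulfur gene Uqcrfs1 91.9 TPM, and Uqcr10 was lowest at 83.6 TPM.

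Complex IV has several subunits with a common and a tissue-restricted isoform, and the common form dominated in each pair. Cox8b, the heart and muscle form of Cox8a (246 TPM on average), stood at 0 to 3.25 TPM, and Cox7b2, the testis form of Cox7b (150 TPM), at 0 to 1.87 TPM. Cox6a2, the muscle form of Cox6a1 (171 TPM), had a total count of 13, and Ndufa4l2, a hypoxia-induced paralogue of Ndufa4 (186 TPM), a total count of 45; these were the 2 members too low to test. Cox7a1, the muscle form of Cox7a2, gave 17.2% to 30.5% of the summed TPM of that pair, and Cox6b2, known as a testis form of Cox6b1, gave 10.7% to 21.3% of its pair. Of the 3 genes for the c-ring of ATP synthase, which encode the same mature protein, Atp5g3 gave 49.8% to 56.1% of their summed TPM, Atp5g2 29.7% to 35% and Atp5g1 14% to 17.4%. Reads could be split with copies elsewhere in the genome: 36.7% of the 50-base words of Atp5g2 occur in transcripts of other genes, against none of those of Cox4i2, Cox6b2, Cox7a1 or Cox8b.

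Above 10 CPM the spread of single members between libraries was close to that of all genes of the same level. At 1 to 10 CPM the 8 members spread less, but levels within that range were not matched. Genes with a count of 0 in any library were left out. CPM values are counts scaled to a common normalised library size. Among genes at 10 to 100 CPM, the median standard deviation (SD) of log2 CPM over the 8 libraries was 0.203 for 64 members and 0.203 for all 7635 genes. Above 100 CPM it was 0.18 for 14 members and 0.179 for all genes, and at 1 to 10 CPM 0.298 for 8 members and 0.548 for all 3328 genes. Atp5h varied least (SD 0.0695, 120 to 139 CPM), followed by Ndufc2 (0.0776) and Uqcrb (0.0924). Of the tested members with a count above 0 in every library, Cox4i2, the alternative isoform of Cox4i1, varied most (SD 1.03). Ndufb4 (0.397) and Cox7a1 (0.372) followed. Cox8b and Cox7b2, with counts of 0 in some libraries, and the untested Ndufa4l2 and Cox6a2 were not ranked.

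**Figure D2:**
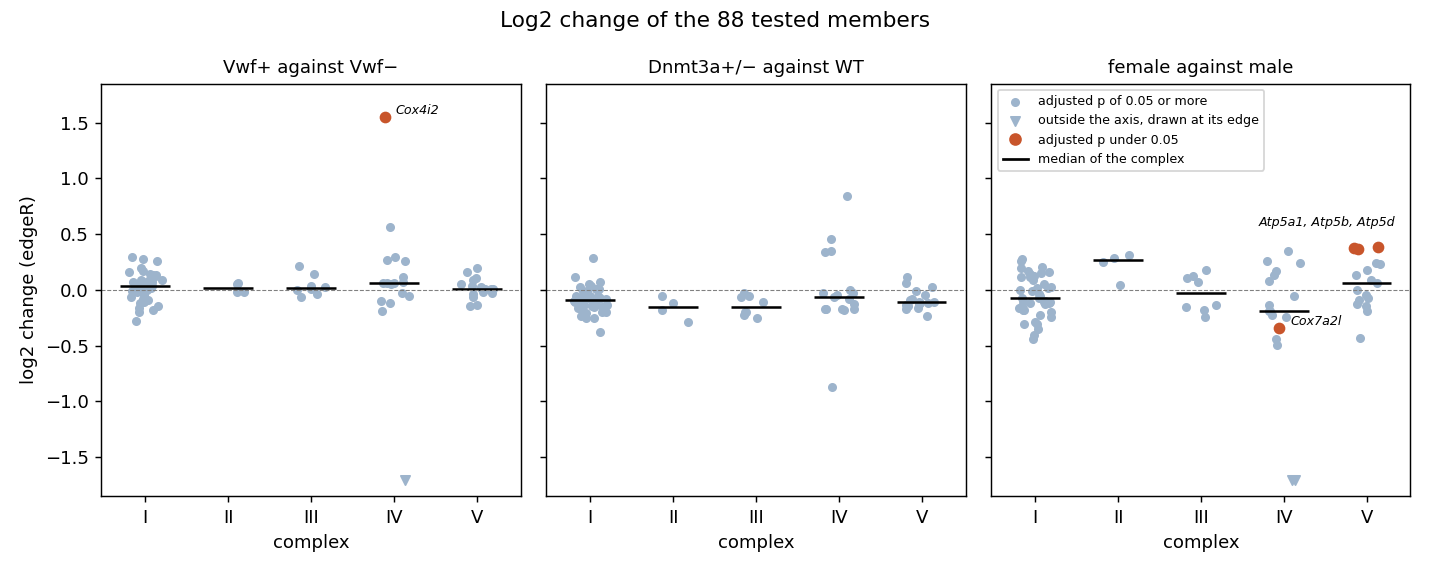
Log2 change of the 88 tested members by complex in 3 comparisons; each point is 1 gene, orange marks an adjusted p under 0.05 and bars are medians per complex. Cox4i2 alone is orange for Vwf status, none for genotype, and Atp5a1, Atp5b, Atp5d and Cox7a2l for sex; Cox8b (−2.98 for Vwf status, −2.75 for sex) and Cox7b2 (−2.09 for sex) lie beyond the axis.

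Vwf+ and Vwf- cells were compared to ask how respiratory genes differ between platelet-biased and other LT-HSCs. Averaged over genotype, 1 of 88 members rose and none fell at an adjusted p under 0.05 (edgeR, adjusted over all 15917 genes), against 5.44% of all tested genes (3.76% higher and 1.68% lower). At an unadjusted p under 0.05, 1 member and 17.2% of all genes were called. With replicate number as a block, 1 member passed against 13.4% of all genes (edgeR). The median log2 change was 0.03 over members (−0.02 on log2(TPM + 1) values) and −0.01 over all genes, with complex medians of 0.03 (I), 0.02 (II), 0.01 (III), 0.06 (IV) and 0.01 (V). The member median was 0.13 in WT (64 of 88 positive, all genes 0.0039; −0.02 on log2(TPM + 1) values) and −0.06 in Dnmt3a+/- cells (62 of 88 negative, against −0.02 over all genes). Both medians changed sign between the pools. In WT the median Vwf difference was −0.07 between the male and 0.26 between the female libraries. In Dnmt3a+/- cells it was 0.10 between the male and −0.20 between the female libraries. In WT cells alone 0 members passed against 1.97% of genes (1.48% higher and 0.496% lower), with 2 members and 12.4% of genes at an unadjusted p under 0.05 (edgeR). In Dnmt3a+/- cells 0 members passed against 1.06% of genes (0.892% higher and 0.17% lower), with 1 member and 9.02% of genes at an unadjusted p under 0.05, and 0 against 5.37% with replicate number as a block (edgeR).

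The member that passed was Cox4i2 (chromosome 2, 152754173 to 152765037, plus strand; GENCODE M21), a complex IV isoform known from lung and from oxygen-sensing cells. Its counts were 53 and 50 in the male and female Vwf- WT libraries, 52 and 23 in Vwf- Dnmt3a+/-, 115 and 127 in Vwf+ WT and 83 and 49 in Vwf+ Dnmt3a+/-. In CPM these were 1.88 and 1.5, 1.24 and 0.734, 5.17 and 5.47, and 3.64 and 1.77. Within each genotype both Vwf+ libraries lay above both Vwf- libraries, while the female Vwf+ Dnmt3a+/- library lay below the male Vwf- WT library.

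Cox4i2 rose 2.92-fold in Vwf+ cells (log2 change 1.55 ± 0.37 SE, adjusted p = 0.0395, edgeR), and it was higher in 4 of 4 pairs of the same genotype and sex, by 1.46, 1.87, 1.55 and 1.27. The change was 1.66 ± 0.52 in WT (adjusted p = 0.19, edgeR) and 1.44 ± 0.53 in Dnmt3a+/- cells (adjusted p = 0.38, edgeR). With replicate number as a block the WT change was 1.69 and passed (adjusted p = 0.0477, edgeR, with 8.35% of all genes called), and DESeq2 gave 1.65 (adjusted p = 0.0495). The averaged call was lost when any of 6 libraries was left out, with adjusted p (edgeR) of 0.0855 and 0.173 without the male and female Vwf- WT, 0.0864 and 0.115 without the male and female Vwf+ WT, 0.0737 without the female Vwf- Dnmt3a+/- and 0.148 without the male Vwf+ Dnmt3a+/- library. The log2 change stayed between 1.24 and 1.76 over all 8 such fits.

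Male and female values of the common isoform Cox4i1 were 172 and 127 CPM for Vwf- WT, 158 and 149 for Vwf- Dnmt3a+/-, 177 and 186 for Vwf+ WT, and 170 and 126 for Vwf+ Dnmt3a+/-, so its groups overlapped (log2 change 0.11 ± 0.14 SE, adjusted p = 0.78, edgeR). Cox4i2 gave 2.98% and 3% of the summed TPM of the pair in Vwf+ WT, 2.2% and 1.46% in Vwf+ Dnmt3a+/-, 1.13% and 1.23% in Vwf- WT and 0.819% and 0.515% in Vwf- Dnmt3a+/- libraries. The common form made up nearly all of the subunit's transcripts in each library.

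**Figure D3:**
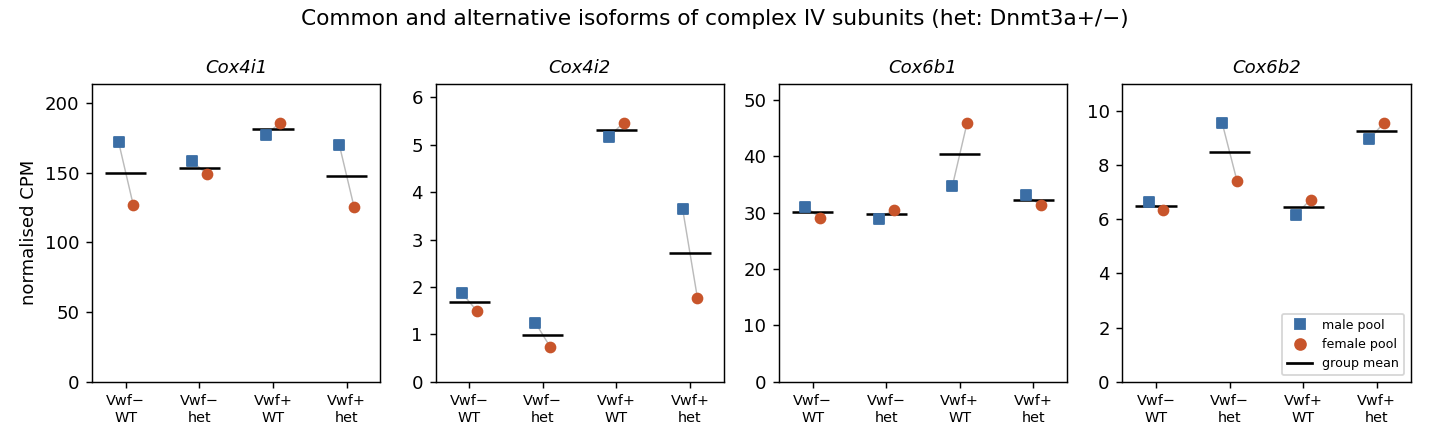
Normalised CPM of Cox4i1, Cox4i2, Cox6b1 and Cox6b2 in each library, male (squares) and female (circles), with bars at group means; axes start at 0 and differ between genes. Cox4i2 is highest in Vwf+ WT (5.17 and 5.47 CPM), and Cox6b2 lies at 7.41 CPM or above in the 4 Dnmt3a+/- libraries and at 6.72 CPM or below in the 4 WT libraries.

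Markers of stem cells and of other cells moved with Vwf status, and their part in the Cox4i2 result was not tested. Of all tested genes, 3.76% rose in Vwf+ cells and 1.68% fell. Of the 10 stem cell markers 5 rose in Vwf+ cells (Slamf1, Hoxb5, Ctnnal1, Fgd5 and Mecom) and 0 fell. The median log2 change of that list was 0.655, with 2 markers negative. The 6 endothelial markers summed to 142 to 184 TPM in Vwf+ and to 81.2 to 111 TPM in Vwf- libraries, and 3 of them rose (Cldn5, Kdr and Cdh5). Of the megakaryocyte markers 2 of 5 tested rose (Pf4 and Gp1bb), with sums of 228 to 399 TPM in Vwf+ and 159 to 180 TPM in Vwf- libraries. Elane, 1 of 6 neutrophil markers, rose (sums of 60.2 to 130 and 27.7 to 97 TPM), while 4 of the 6 had negative values and the list a median log2 change of −0.38. Nkg7, the only T and NK cell marker high enough to test, fell (sums over 4 markers of 4.78 to 9.77 and 19 to 23.6 TPM), and Cd3e, Cd3d and Cd3g stood below 1 TPM in all libraries. Pericyte and smooth muscle genes, chosen after the Cox4i2 values were seen, summed to 7.5 to 10.9 TPM in Vwf+ and 8.78 to 15.9 TPM in Vwf- libraries, with Rgs5 at 0 to 0.474 TPM and Kcnj8 at 0 to 0.0713 TPM. In bulk samples more cells of a type and more RNA per cell cannot be told apart.

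Of the members that did not pass, some were still separated by library. The 4 Vwf+ libraries lay above the 4 Vwf- libraries without overlap for 3 members, against 7.71% of all genes in that direction: the core subunit gene Ndufs7 (73.2 to 89 against 66.2 to 71.9 CPM), the assembly factor gene Ndufaf1 (14.1 to 15.9 against 11 to 12.5 CPM) and Cox6b1 (31.3 to 46 against 28.9 to 31.1 CPM). Their log2 changes were 0.16 ± 0.10, 0.30 ± 0.15 and 0.27 ± 0.13 (SE), with adjusted p of 0.516, 0.351 and 0.335 (edgeR). No member lay below without overlap, against 5.33% of genes. In the lower direction the smallest p belonged to Cox8b (−2.98 ± 1.47, adjusted p = 0.348, edgeR), which had counts of 0 in 3 libraries, then to Ndufaf7 (−0.28 ± 0.18) and Ndufs1 (−0.18 ± 0.13).

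The comparison of Dnmt3a+/- with WT cells asked whether the cells labelled heterozygous differ in these genes, with Dnmt3a itself not lower in them. No member passed in edgeR, averaged over Vwf status or within either fraction, against 0% of all genes in each. At an unadjusted p under 0.05, 3 of 88 members and 3.24% of all genes were called in the average, 0 members and 2.28% of genes in Vwf+ cells, and 0 members and 1.33% in Vwf- cells. Under the replicate block 0.188% of genes passed in the average, 0.0377% in Vwf+ and 0.0126% in Vwf- cells, none of them a member, and DESeq2 called no member either. No marker of another cell type passed for genotype. Median log2 changes were 0.79 for the neutrophil markers (6 of 6 positive), 0.83 for the macrophage markers (4 of 5 positive) and 0.63 for the pericyte and smooth muscle genes (5 of 6 positive), and their part in the values below was not tested.

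The 3 members at an unadjusted p under 0.05 were Cox4i2, Cox6b2 and Sdhb. Cox6b2 (chromosome 7, 4751792 to 4753094, minus strand) had male and female values of 6.62 and 6.33 CPM for Vwf- WT, 6.16 and 6.72 for Vwf+ WT, 9.53 and 7.41 for Vwf- Dnmt3a+/-, and 8.95 and 9.56 for Vwf+ Dnmt3a+/-. All 4 Dnmt3a+/- libraries lay above all 4 WT libraries, and no other member was separated in this way, against 1.24% of all genes in that direction and 0.848% in the other. The log2 change was 0.46 ± 0.19 SE (unadjusted p = 0.0402, adjusted p = 0.998, edgeR), with a positive difference in 4 of 4 pairs. Its share of the Cox6b pair was 10.7% to 15.1% in WT and 16.6% to 21.3% in Dnmt3a+/- libraries.

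Cox4i2 had a log2 change of −0.87 ± 0.37 SE in Dnmt3a+/- cells (unadjusted p = 0.0393, adjusted p = 0.998, edgeR), with a negative difference in 4 of 4 pairs (−0.507, −1.62, −0.595 and −1.03). Its interaction value, the difference of the Vwf change between Dnmt3a+/- and WT, was −0.22 ± 0.74 SE (adjusted p = 1, edgeR), which is within its own error. Sdhb had a log2 change of −0.29 ± 0.13 SE (unadjusted p = 0.0495, adjusted p = 0.998, edgeR). Cox7a1, at 1.65 to 3.33 CPM in WT and 2.68 to 3.77 CPM in Dnmt3a+/- libraries, overlapped between genotypes (0.35 ± 0.34 SE), and so did Ndufaf5 (0.28 ± 0.20) and Uqcrfs1 (−0.20 ± 0.11).

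Most members had a small negative value for genotype, none of which passed. The log2 change was negative for 73 of 88 members, with a median of −0.11 against 0.01 over all genes. The values were negative for 34 of 42 members of complex I (median −0.09), 4 of 4 of complex II (−0.15), 8 of 8 of complex III (−0.15), 13 of 17 of complex IV (−0.07) and 14 of 17 of complex V (−0.11). Medians of other lists of abundant transcripts were −0.10 for 77 mitochondrial ribosomal protein genes, −0.12 for 79 cytosolic ribosomal protein genes and −0.09 for 39 proteasome genes, and none of their members passed. On log2(TPM + 1) values the member median was −0.05. Without the female Vwf+ WT library it was −0.04, and without the female Vwf+ Dnmt3a+/- library −0.06.

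**Figure D4:**
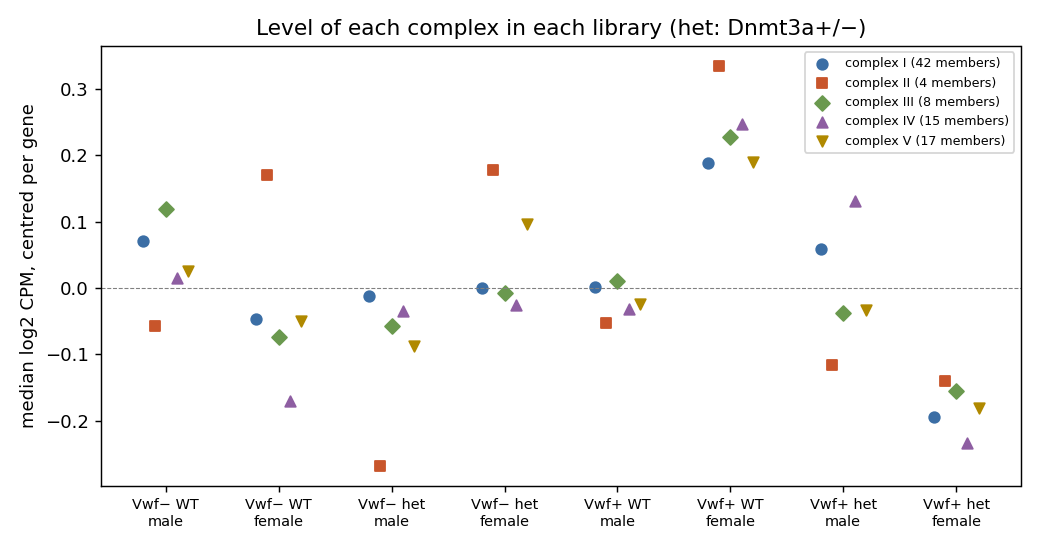
Median over the members of each complex of log2 CPM, centred per gene on its mean over the 8 libraries, in each library; members with a count above 0 in every library are included. The female Vwf+ WT library is highest (0.19 to 0.33 over the 5 complexes), and in the female Vwf+ Dnmt3a+/- library all 5 complexes lie below 0 (−0.14 to −0.23).

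By library, over 86 members, the median centred log2 CPM was 0.21 in the female Vwf+ WT library and −0.18 in the female Vwf+ Dnmt3a+/- library, and between −0.06 and 0.04 in the other 6. Within Vwf+ cells the median genotype difference was 0.03 between the male pools and −0.40 between the female pools. Within Vwf- cells it was −0.13 between the male and 0.09 between the female pools. The interaction values had a median of −0.19 over members, with 73 of 88 negative, made up of 0.18 in the male and −0.50 in the female pools. On log2(TPM + 1) values the interaction median was −0.02. No member passed for the interaction in edgeR (0% of all genes), and 1 member, the Fo membrane subunit gene Atp5j2, had an unadjusted p under 0.05 (−0.55 ± 0.24 SE, 0.999% of all genes).

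For the contrast of female with male pools, the model held the 4 group means and a term for sex. Here 4 of 88 members passed, 3 higher and 1 lower in female pools, against 5.62% of all genes higher and 4.92% lower (10.5% in all). With upper-quartile scaling, which turned the split of all called genes from 894 higher and 783 lower to 672 higher and 968 lower, 2 members passed, Atp5d higher and Cox7a2l lower. Limma on log2(TPM + 1) values called 93 genes higher and 194 lower. At an unadjusted p under 0.05, 17 members (19.3%) and 25.1% of all genes were called. The median change was −0.05 over members and −0.02 over all genes.

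The 3 genes that rose encode subunits of ATP synthase. Atp5a1 encodes the α and Atp5b the β subunit, which form the catalytic hexamer, and Atp5d the δ subunit of the central stalk. Atp5a1 (chromosome 18, 77773729 to 77782869, plus strand) stood at 527, 370, 528 and 426 CPM in the male Vwf- WT, Vwf- Dnmt3a+/-, Vwf+ WT and Vwf+ Dnmt3a+/- libraries, and at 595, 640, 594 and 558 CPM in the female ones. The female and male libraries of Atp5a1 did not overlap. Its log2 change was 0.38 ± 0.11 SE (adjusted p = 0.0349, edgeR), higher in 4 of 4 pairs, by 0.79 in Vwf- Dnmt3a+/- and 0.17 to 0.39 in the other groups.

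Atp5b (chromosome 10, 128083273 to 128090391, plus strand) stood at 468, 311, 430 and 374 CPM in the male libraries in the same order, and at 512, 533, 548 and 443 CPM in the female ones. The female Vwf+ Dnmt3a+/- library lay below the male Vwf- WT library, so these overlapped. Its log2 change was 0.37 ± 0.11 SE (adjusted p = 0.035, edgeR), higher in 4 of 4 pairs. Atp5d (chromosome 10, 80138632 to 80145818, plus strand) stood at 99.4, 84.8, 96.1 and 82.8 CPM in the male and at 111, 119, 132 and 106 CPM in the female libraries, without overlap. Its log2 change was 0.37 ± 0.10 SE (adjusted p = 0.0184, edgeR), higher in 4 of 4 pairs. The other 2 genes of the central stalk, Atp5c1 (−0.07 ± 0.10) and Atp5e (−0.13 ± 0.11), had negative values and did not pass.

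**Figure D5:**
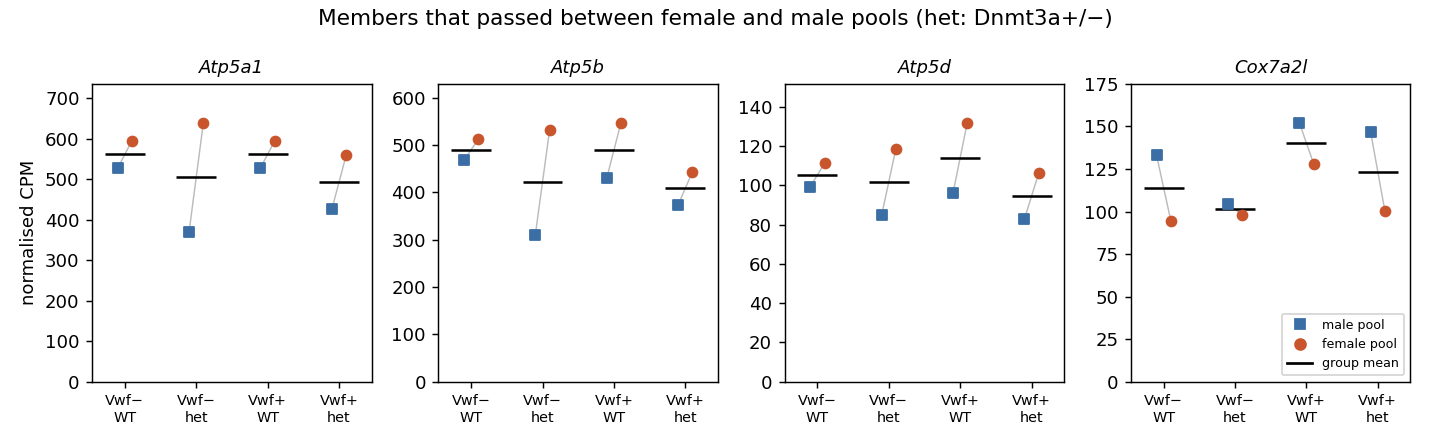
Normalised CPM of the 4 members that passed between sexes, with male (squares) and female (circles) libraries of a group joined by a line and bars at group means; axes start at 0. In each of the 4 groups Atp5a1, Atp5b and Atp5d are higher and Cox7a2l is lower in the female library, and the largest gap of Atp5a1 and Atp5b is in Vwf- Dnmt3a+/- cells.

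Cox7a2l, which helps join complexes III and IV into supercomplexes, fell in female pools. It stood at 133, 104, 152 and 147 CPM in the male and at 94.6, 98.1, 128 and 100 CPM in the female libraries, in the same order of groups. The groups overlapped, since the female Vwf+ WT library lay above the male Vwf- Dnmt3a+/- library. Its log2 change was −0.34 ± 0.10 SE (adjusted p = 0.0322, edgeR), lower in 4 of 4 pairs, and 13.8% of its 50-base words occur in another gene.

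Each call was lost when a library of certain groups was left out. In this model either omission removes that group's pair from the sex estimate, because the remaining library only sets its own group mean. Male and female omissions in a group are thus not separate checks. Without the male Vwf- Dnmt3a+/- library Atp5a1 and Atp5b had log2 changes of 0.24 and 0.23, and without the female one of 0.25 each. Atp5a1, Atp5b and Atp5d lost the call without a Vwf- Dnmt3a+/- or a Vwf+ Dnmt3a+/- library. Cox7a2l lost it without a Vwf- WT or a Vwf+ Dnmt3a+/- library. The number of members called also changed with the group whose pair was left out, and it is not read as a result about members. In limma on log2(TPM + 1) values no member passed, with 17 at an unadjusted p under 0.05, and the directions of the 4 genes were kept.

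Of the other complexes, complex II had a median of 0.27 in female pools, led by Sdha (0.31 ± 0.10 SE, adjusted p = 0.0532, edgeR), whose female libraries at 219 to 259 CPM lay above the male ones at 168 to 214 CPM. Sdhc and Sdhb had 0.29 ± 0.11 and 0.25 ± 0.10, and Sdhd 0.05 ± 0.11. Non-overlap of female above male libraries was seen for 4 members (Atp5a1, Atp5d, Sdha and Cox6a1), against 5.35% of genes, and of female below male for Atp5s and Ndufa6, against 5.91%. Complex I had a median of −0.07, with Ndufv1 at 0.28 ± 0.10 (adjusted p = 0.0813, edgeR), and Ndufaf5 and Ndufa11 at −0.41 ± 0.16 and −0.31 ± 0.13. Medians were −0.03 in complex III, −0.19 in complex IV and 0.06 in complex V. Exon length was taken over all annotated exons of a gene together, which can exceed the length of its transcripts. The 43 members of shorter exon length (360 to 1675 bases) had a median of −0.09 and the 43 longer ones (1718 to 8086 bases) 0.05. Malat1 took a smaller share of counts in each female library, the stem cell markers Procr and Fgd5 fell in female pools by 0.88 and 0.49 on the log2 scale, the endothelial marker Kdr fell by 0.43 (adjusted p = 0.0495, edgeR), the pericyte gene Pdgfrb rose by 0.58 (adjusted p = 0.0169, edgeR), and the part of these in the result was not tested.

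Genes that work with the respiratory chain but lie outside the symbol pattern were read in the same fits. Of all tested genes, 3.76% rose and 1.68% fell in Vwf+ cells, and 5.62% rose and 4.92% fell in female pools. The counts called in each list stand beside these shares. Among 37 assembly factors and partners (such as the cytochrome c gene Cycs and the copper chaperone gene Cox17), none passed for Vwf status (the smallest p was that of the complex I assembly gene Timmdc1, −0.27 ± 0.15, adjusted p = 0.399, edgeR) and only Cox20, which assembles the Cox2 subunit of complex IV, fell in female pools (−0.50 ± 0.14 SE, adjusted p = 0.0277, edgeR). Among 24 regulators of mitochondrial biogenesis, Myc alone passed for Vwf status and fell in Vwf+ cells (−0.88 ± 0.16 SE, adjusted p = 0.00918, edgeR). In female pools the co-activator gene Pprc1 (0.32), the mitochondrial RNA-binding protein gene Lrpprc (0.34) and Myc (0.35) rose, and Polg2, the accessory subunit of the mitochondrial DNA polymerase, fell (−1.07 ± 0.16 SE). None of the lists had a member that passed for genotype.

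Of 22 genes of the tricarboxylic acid cycle and pyruvate entry, 3 rose in female pools, against 5.62% of all genes: Cs (citrate synthase, 0.43 ± 0.11 SE), Ogdh (0.32 ± 0.10) and Mdh2 (0.34 ± 0.10). Of 15 genes for carriers, uncoupling and antioxidants, 3 rose, against the same 5.62%: the outer membrane channel gene Vdac1 (0.34 ± 0.11), Ucp2 (0.40 ± 0.13) and the superoxide dismutase gene Sod2 (0.38 ± 0.11). Unlike the calls of members, calls of single list genes were not followed through upper-quartile scaling, limma or fits with a library left out. Medians of these 2 lists were 0.13 and 0.14 in female pools and near 0 for Vwf status (−0.01 and −0.07). The smallest p for Vwf status belonged to Pdk1 (−0.28 ± 0.10, adjusted p = 0.149, edgeR) and Prdx5 (0.39 ± 0.12, adjusted p = 0.108, edgeR). Of 77 mitochondrial ribosomal protein genes none passed in either comparison (medians 0.01 for Vwf status and 0.01 for sex; Mrpl52 had the smallest p for Vwf status, 0.36 ± 0.14). Of 39 proteasome genes Psmd2, Psmd3 and Psmd5 rose in female pools (3 genes, against 5.62% of all genes). Of 79 cytosolic ribosomal protein genes none passed for Vwf status (median 0.20), and 1 rose (Rps2) and 3 fell (Rps25, Rps27 and Rpl34) in female pools, where 4.92% of all genes fell.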

How the data were processed

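Per the submitters' processing notes, Trim Galore, STAR, featureCounts and DESeq2 were used with build mm10; versions, annotation, strand setting and handling of multi-mapping reads are not given in the sources used here. The authors deposited a table of raw counts and a table of TPM values, the latter proportional to count over 1 fixed length per gene (checked on 14743 genes).

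The raw counts entered edgeR 4.0.16 (R 4.3.3) with filterByExpr at a minimum count of 10, TMM scaling (0.958 to 1.06) and quasi-likelihood F-tests on 4 group means over all 8 libraries (4 residual degrees of freedom, 3 with sex or block). P-values were adjusted by Benjamini-Hochberg over 15917 genes, with a threshold of 0.05. Of 90 members 88 were tested. Standard errors (SE) were calculated back from the F statistic. P-values measure the spread between pools; without a sex term, replicates of a group differ in sex. The fit was tested on simulated counts.

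Alternatives were DESeq2 1.42.0, no count filter, upper-quartile scaling, limma 3.58.1 on log2(TPM + 1) and log2(TPM + 0.1), a replicate block, and leaving out each library. Libraries of one replicate number share a sex by their labels, so the numbers pair them by sex. Their replicate differences correlated across 15917 genes with r of 0.134 to 0.296 over the 6 pairs of groups. Each difference was female minus male, so these values cannot tell a pairing by mice or batch from shared sex. Overlaps and repeated 50-base words come from GENCODE M21 on GRCm38; 10 of 88 members shared over 10% of their words with other genes, and 3 had over 20% of exon bases in another gene (Ndufa13, Ndufb6 and Ndufaf2).

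The members and gene lists were chosen with earlier results of these data known. Named genes were all members past the threshold, the 3 of smallest p in each direction for Vwf status, genotype and sex, the 2 highest and the lowest by TPM in each complex, the isoform pairs, the core subunits (1 of which is not reported here), and the genes of the other lists that passed or had the smallest p; genes of non-overlapping groups and Ndufc2, Uqcrb, Ndufb4, Atp5e and Atp5j2 were named after their values were seen.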

Additional observations from a re-analysis of the deposited data

How the results depend on the processing

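The number of members called for Vwf status averaged over genotype was 1 in edgeR (5.44% of all genes), DESeq2, limma on both TPM scales, without the count filter and with upper-quartile scaling. It was also 1 with the replicate block, where 13.4% of all genes passed. The call was not kept in every fit with 1 library left out. In WT the number of members called was 0 in edgeR and 1 with DESeq2 and with the replicate block, which changed no other call. For Vwf status in Dnmt3a+/- cells, genotype and the interaction it was 0 under each alternative run. Between sexes it was 4 in edgeR, 6 with DESeq2, 6 without the count filter, 2 with upper-quartile scaling, 0 with limma on log2(TPM + 1), 0 with limma on log2(TPM + 0.1) and 1 to 17 with 1 library left out. With 1 library left out, the Vwf change of Cox8b (−2.98) ran from −4.76 to 0.046, turning without the male Vwf- WT library. The interaction of Cox4i2 (−0.22) ran from −0.82 to 0.24, turning without the male Vwf- Dnmt3a+/- (0.24) or the female Vwf+ Dnmt3a+/- library (0.22). The cause of each of these changes was not tested. Counts under 100 in most libraries limit Cox4i2. For contrasts other than sex, where 1 library of a group is left out the other is assumed to vary like the rest. Between sexes, that group no longer adds to the estimate.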
